A study of Zea mays with 12 samples.

Results

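Line 102 was compared with line 55 in maize embryos that had not been cooled. The comparison used the 6 of 12 RNA-seq libraries kept at 25 °C throughout, 3 of line 102 (CT_102) and 3 of line 55 (CT_55), chosen by the line and treatment in the sample names. Of the 33589 genes in the deposited table, 22985 were counted well enough to be tested. Line 55 (Zao8-3) is a maize inbred line that the labels call resistant to low temperature, and line 102 (Ji853) is an inbred line that they call sensitive. In each line, seeds took up water for 6 h at 25 °C, stayed at 25 °C for another 2 h, and poly(A) RNA was taken from the embryos. The other 6 libraries, of the same lines after 2 h at 10 °C, entered the model only to estimate the spread and for a few values set side by side. Each group is 1 inbred genotype, so a difference between them holds for this pair of lines and cannot be assigned to cold tolerance.

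A dry maize embryo carries RNA stored during seed maturation, among it messages for storage globulins, oleosins that coat oil bodies, and late embryogenesis abundant (LEA) proteins that protect drying cells. When the embryo takes up water, it resumes respiration and translation, repairs its DNA and begins to use its oil, sugars and storage protein, well before the root emerges. Inbred lines of maize differ widely in sequence and in gene content, and reads of both lines were mapped here to a further inbred, B73.

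The labelled tissue was checked first. The 5 embryo markers in the table (the storage globulins glb1 and glb2, the oleosin ole1, the seed regulator vp1 and the dehydrin dhn1) summed to between 16900 and 18800 FPKM (fragments per kilobase of gene and library size) in the CT_55 libraries and between 26700 and 27800 in the CT_102 libraries, and none was at 0. The 32 endosperm markers, mostly zeins, summed to between 26.4 and 44.9 FPKM in line 55 and between 3.43 and 4.59 in line 102. Of the 6 endosperm markers that were tested, 5 were lower and 1 was higher in line 102, and 2 of the 32 were at 0 in every CT_55 library against 14 in every CT_102 library. The markers of green tissue summed to between 60.5 and 67.2 FPKM in line 55 and between 58.1 and 63.3 in line 102. The endosperm markers moved with the line, and their part in the results below was not tested. In bulk samples, fewer cells of a type and less RNA per cell cannot be told apart.

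Library totals lay between 44028579 and 57433166 counts in line 55 and between 54895048 and 56961402 in line 102. Across genes, library-scaled log2 counts correlated at between 0.971 and 0.981 within a line and between 0.751 and 0.759 across the lines. This is a description, since genes are not independent replicates. The 10 most abundant genes took between 8.56% and 9.56% of the counts in line 55 and between 10.7% and 11.4% in line 102.

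The lines differed widely, and about equally in both directions. A gene was called when it differed by 1.5-fold or more with an unadjusted p-value below 0.05 in edgeR's quasi-likelihood test. Log2 fold changes are always line 102 over line 55. Of 22985 tested genes, 5581 (24.3%) were called higher in line 102 and 5478 (23.8%) lower, and 11926 were not called. Of the called genes, 10707 also had a Benjamini-Hochberg adjusted p-value below 0.05. The median log2 fold change over all tested genes was 0.01 and the median size was 0.64. These shares are the background against which every family and pathway is read.

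Differences were largest among weakly expressed genes. Of the 9833 genes with a mean below 5 FPKM over the 12 libraries, 3099 were higher and 2588 lower in line 102, and the median size of the log2 fold change was 1.06. Of the 13152 genes with a mean of at least 5 FPKM, here called well measured, 2482 (18.9%) were higher and 2890 (22%) lower, with a median size of 0.47. Among the 265 genes of at least 500 FPKM, 46 were higher and 59 lower. A called difference could also be a near absence: 693 tested genes had 3 counts or fewer in each CT_55 library, and 610 had 3 or fewer in each CT_102 library. Of these, 613 and 533 had a mean below 5 FPKM. A gene nearly absent from a line has a lower mean over the 12 libraries, so level and size of difference are not independent here. Fold changes of low counts also vary more. A gene that is missing from a line, or so diverged from B73 that its reads do not map, gives the same picture as a gene that is not transcribed, and these cannot be told apart in the counts.

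**Figure D1:**
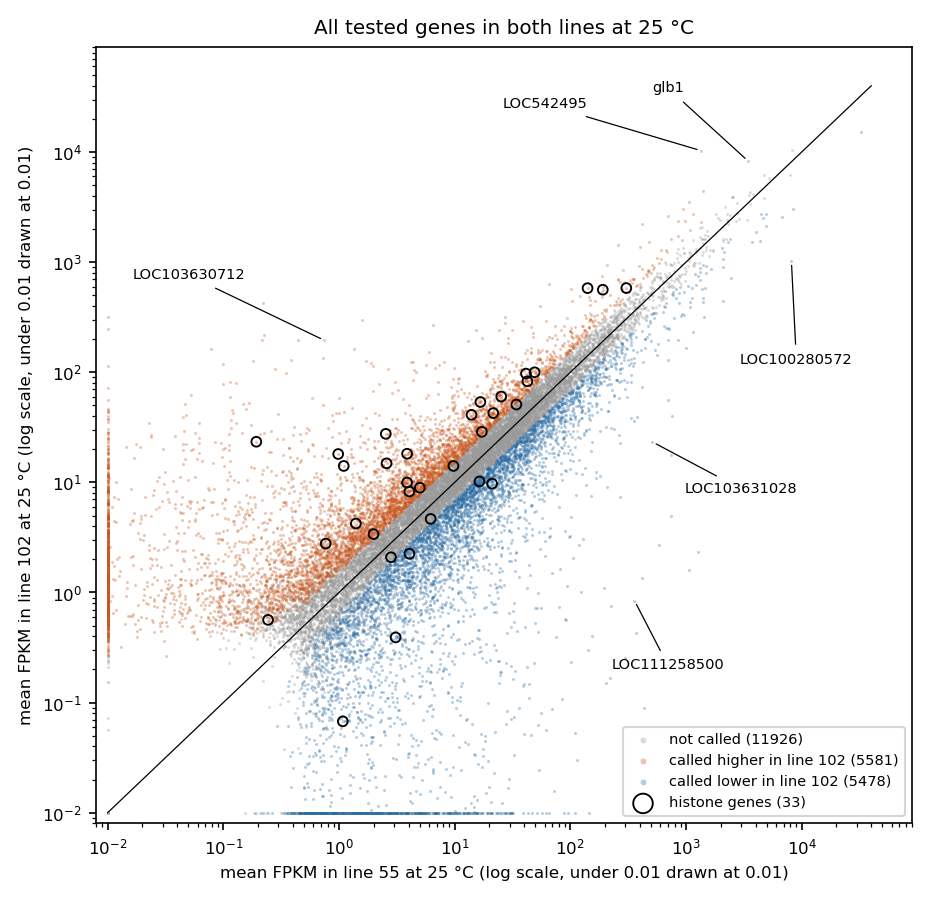
Mean FPKM of each tested gene in line 55 (x axis, log scale) and line 102 (y axis, log scale) at 25 °C, with means under 0.01 drawn at 0.01, called genes in colour and the 33 histone genes circled. The 5581 genes called higher and the 5478 called lower lie on both sides of the diagonal at every level, while most circled histone genes lie above it.

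The called genes were spread over the genome. On the 10 chromosomes the share of tested genes called in either direction ranged from 44.1% (chromosome 5) to 51.9% (chromosome 7). In the 212 windows of 10 Mb with at least 20 tested genes, the median share was 48.1%, with quartiles of 43.1% and 53.1%. The lowest share was on chromosome 2 between 160 and 170 Mb (B73 RefGen_v4), where 21 of 86 genes were called. The highest was on chromosome 6 between 20 and 30 Mb, where 62 of 84 genes (73.8%) were called and 24 genes were at the limit of 3 counts in 1 of the lines. A window on chromosome 8 between 50 and 60 Mb followed with 73.1%.

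The most abundant genes called higher in line 102 included a lipoxygenase and a storage globulin. Here and below, genes named as most abundant among the called or as most changed were required to have no overlap between the lines. Linoleate 9S-lipoxygenase3 (LOC542495, chromosome 1, 269047918 to 269052497), which oxidizes linoleic acid at carbon 9 in the first step of oxylipin synthesis, had 1510, 1380 and 1170 FPKM in the CT_55 libraries and 10600, 9530 and 10900 in the CT_102 libraries. Every CT_102 library was far above every CT_55 library, a 7.38-fold difference (log2 2.88 ± 0.16, SE, adjusted p = 2e-08 by edgeR, Benjamini-Hochberg). In line 102 the lipoxygenase was thereby at the level of the storage globulins. The globulin gene glb1 (chromosome 1, 262991901 to 262994314) had 3140, 3150 and 4060 FPKM in line 55 and 8280, 7610 and 8970 in line 102, a log2 fold change of 1.22 ± 0.19 with no overlap of the lines.

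The other abundant genes of this direction came from translation, desiccation tolerance and starch synthesis. A gene similar to 60S ribosomal protein L23a (LOC541695) had 1480, 1470 and 1260 FPKM in line 55 and 4430, 3940 and 4830 in line 102, which is 3.03-fold higher. A LEA D-34 protein gene (LOC103631743) had 893, 1220 and 1080 FPKM in line 55 and 3240, 4020 and 3310 in line 102. In both genes the lowest CT_102 library exceeded the highest CT_55 library by more than the whole range within line 55. A starch branching enzyme gene (LOC542342) differed less, with 2410, 2640 and 2460 FPKM against 3690, 3790 and 4190, a log2 fold change of 0.59 that lies at the threshold and fell below it without CT_55 replicate 1 (0.57), CT_55 replicate 3 (0.58) or CT_102 replicate 3 (0.51).

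Of the 5 most abundant genes that were lower in line 102, the largest change was in a gamma-thionin, a small defensin-like peptide. The gamma-thionin gene LOC100280572 (chromosome 10, 62902285 to 62903162) had 9010, 7920 and 7550 FPKM in line 55 and 972, 1170 and 916 in line 102, which is 8.3-fold lower (log2 -3.05 ± 0.13, adjusted p = 2.3e-09 by edgeR, Benjamini-Hochberg). Every CT_102 library was far below every CT_55 library. The group 2 LEA gene magi2594 had 7120, 6820 and 6380 FPKM in line 55 and 2620, 2510 and 2580 in line 102. A gene of UDP-glucose-4-epimerase (LOC542127), which interconverts UDP-glucose and UDP-galactose, had 3910, 4110 and 6840 FPKM in line 55 and 2280, 2060 and 1980 in line 102. In the epimerase CT_55 replicate 3 stood above the other replicates, and all CT_55 libraries still exceeded all CT_102 libraries.

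The gene with the highest mean FPKM of all, LOC542155, has no described function and was 2.19-fold lower in line 102. It had 37300, 28100 and 32200 FPKM in line 55 and 15300, 15800 and 15000 in line 102. LOC100274918, also undescribed, had 7860, 8900 and 8750 FPKM against 2560, 3450 and 3130.

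**Figure D2:**
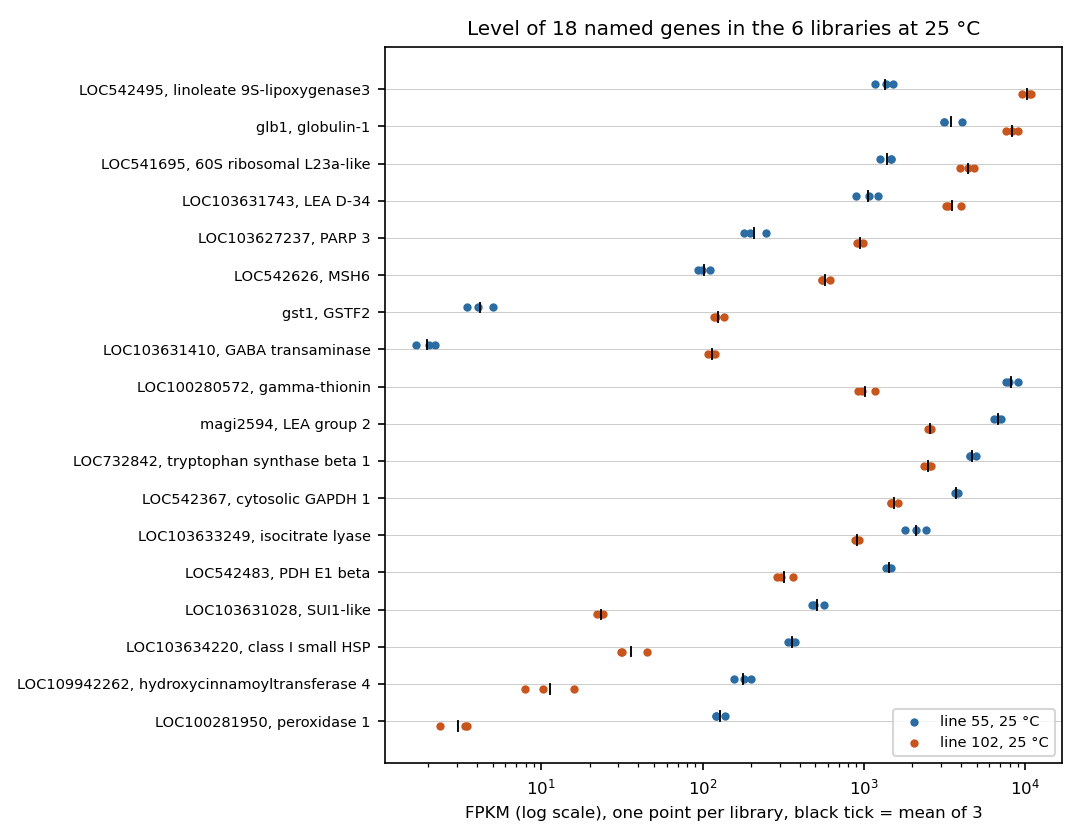
FPKM of 18 named genes (x axis, log scale) in each of the 3 CT_55 and 3 CT_102 libraries, with a tick at the mean of each line. No overlap of the lines was a condition for naming genes as most abundant or most changed, so it is no result of its own. Linoleate 9S-lipoxygenase3 lies between 1170 and 1510 in line 55 and between 9530 and 10900 in line 102. The gamma-thionin lies between 7550 and 9010 in line 55 and between 916 and 1170 in line 102.

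The largest differences among genes counted in both lines exceeded an order of magnitude. These genes were taken from those with a mean of at least 10 FPKM, at least 50 counts in each of the 6 libraries and no overlap, so they were detected in both lines. Higher in line 102 were a mitochondrial gamma-aminobutyrate transaminase (LOC103631410), which degrades the stress metabolite GABA, with 2.2, 2.02 and 1.67 FPKM in line 55 and 115, 108 and 119 in line 102, and the glutathione S-transferase gst1, with 5.04, 4.05 and 3.48 FPKM against 121, 135 and 117. An ATP-dependent DNA helicase (LOC100273001) had 4.23, 4.01 and 4.84 FPKM against 124, 124 and 124. The CT_102 libraries of these 3 genes were close to each other and an order of magnitude above line 55. The ABC transporter G40 gene LOC103632597 (log2 5.08 ± 0.49), a glucose-inhibited division A gene (LOC100280078, 5.05 ± 0.27) and a gene annotated as genetic suppressor element 1 (LOC103630712, 7.99 ± 0.3) completed this direction. LOC103630712 overlaps another gene on the opposite strand, and the libraries were not stated to keep the strand. Reads of overlapping genes cannot be told apart, and this also touches magi2594, LOC103648676, LOC103635599, LOC103643837 and LOC103627452, named in other paragraphs.

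In the other direction, a plasma membrane ATPase (LOC103632998), the proton pump that energizes uptake across the cell membrane, had 74, 88.2 and 80.7 FPKM in line 55 and 1.6, 1.26 and 2.04 in line 102. A translation factor similar to SUI1 (LOC103631028), a protein that helps the ribosome select the start codon, had 570, 478 and 490 FPKM against 22.1, 23.6 and 24.3. A peroxidase 1 gene (LOC100281950) had 122, 122 and 138 FPKM against 3.37, 2.35 and 3.47. In each of these genes the spread within a line was small beside the distance between the lines. A gene described as a pentatricopeptide repeat protein (LOC100217295, log2 -5.55 ± 0.17), a succinate dehydrogenase assembly factor (LOC103638067, -5.32 ± 0.17) and a BAG6 chaperone regulator (LOC109942360, -4.53 ± 0.51) followed. The BAG6 gene overlaps another gene on the other strand, and CT_102 replicate 3 (17.9 FPKM) stood above replicates 1 and 2 (4.17 and 5.13).

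Of the gene ontology (GO) terms, nucleosome separated the lines most clearly toward line 102. Terms were ranked over well-measured genes only, for the 99 KEGG pathways and 633 GO terms that had at least 15 of them, by the median log2 fold change, leaving out a term that shared most of its genes with a term already listed. No test was run on a term. Of the 24 well-measured nucleosome genes, 21 were higher and 1 was lower in line 102 with a median of 1.55, against 18.9% higher and 22% lower over all well-measured genes. Positive gravitropism (9 of 16 higher, 3 lower, median 0.62), histone deacetylase activity (8 of 15 higher, 1 lower, 0.60), endoribonuclease activity (6 of 15 higher, 1 lower, 0.52) and defense response to virus (8 of 18 higher, 2 lower, 0.50) came next. A GO name is the annotation of the genes and not an activity measured here.

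The KEGG pathways with the highest medians concerned DNA repair and the making of ribosomes. Base excision repair had 15 of 35 well-measured genes higher and 4 lower (median 0.38). Ribosome biogenesis in eukaryotes had 38 of 112 higher and 8 lower (median 0.34), and mismatch repair 20 of 51 higher and 10 lower (median 0.30). Aminoacyl-tRNA biosynthesis had 24 of 81 higher and 10 lower (median 0.19). Steroid biosynthesis had a median of 0.26 with 7 of 31 genes called in each direction, close to the background shares. Mismatch repair and base excision repair share 7 of these genes, which is 7 of 51 and 7 of 35. The direction for repair depended on the annotation. The GO term mismatch repair had 1 of 15 well-measured genes higher and 4 lower (median -0.11), and nucleotide-excision repair 0 of 16 higher and 3 lower (-0.1). The GO term double-strand break repair via homologous recombination had 13 of 29 higher and 6 lower (0.46).

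**Figure D3:**
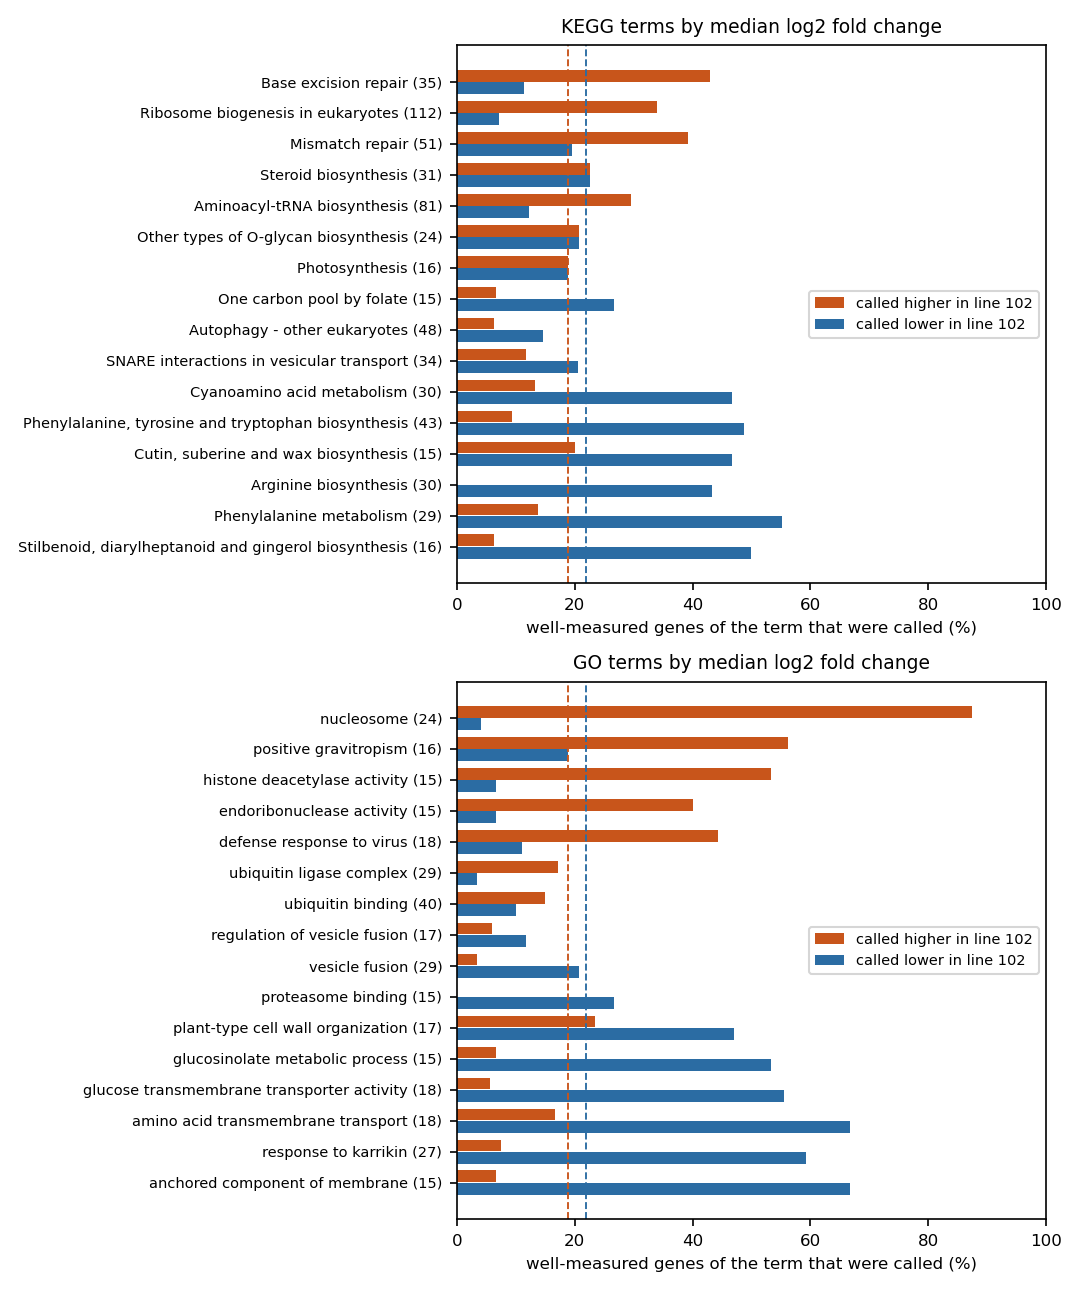
Share of the well-measured genes of each listed KEGG pathway (top) and GO term (bottom) that were called higher (orange) or lower (blue) in line 102, ordered by the median log2 fold change, with the number of genes in brackets. Dashed lines mark the shares over all well-measured genes, 18.9% higher and 22% lower: nucleosome reaches 87.5% higher, and amino acid transmembrane transport and anchored component of membrane reach 66.7% lower.

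At the other end, the KEGG pathways with the lowest medians were those of phenylalanine and its products, together with arginine synthesis. Stilbenoid, diarylheptanoid and gingerol biosynthesis had 8 of 16 well-measured genes lower and 1 higher (median -1.06), phenylalanine metabolism 16 of 29 lower and 4 higher (-0.72), and phenylalanine, tyrosine and tryptophan biosynthesis 21 of 43 lower and 4 higher (-0.45). Arginine biosynthesis had 13 of 30 lower and none higher (-0.50), and 1 higher when CT_55 replicate 1 or 3 or CT_102 replicate 1 or 3 was left out. Cutin, suberine and wax biosynthesis had 7 of 15 lower and 3 higher (-0.49). Phenylalanine metabolism shares 5 of its 29 genes with the 16 of the stilbenoid pathway and 7 with the 43 of aromatic amino acid synthesis.

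The GO terms with the lowest medians were anchored component of membrane (10 of 15 lower, 1 higher, median -1.05), response to karrikin (16 of 27 lower, 2 higher, -0.94), amino acid transmembrane transport (12 of 18 lower, 3 higher, -0.92), glucose transmembrane transporter activity (10 of 18 lower, 1 higher, -0.87) and glucosinolate metabolic process (8 of 15 lower, 1 higher, -0.74). Plant-type cell wall organization had the largest median size of difference of all GO terms, 2.04, with 4 of 17 genes higher and 8 lower.

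Some terms separated the lines little. Over well-measured genes, the median size of the log2 fold change was 0.18 for proteasome binding, 0.19 for regulation of vesicle fusion, ubiquitin ligase complex and ubiquitin binding, and 0.20 for vesicle fusion, against 0.47 over all well-measured genes. Of the KEGG pathways, other types of O-glycan biosynthesis (0.27), photosynthesis (0.29), one carbon pool by folate (0.29), autophagy (0.31) and SNARE interactions (0.32) had the smallest. Single genes in these terms still differed: the most abundant gene of regulation of vesicle fusion, a GTPase-activating protein gyp7 gene (LOC103626094), had 828, 913 and 1010 FPKM in line 55 and 340, 310 and 325 in line 102.

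The histone genes were examined next. Histones package DNA: H2A, H2B, H3 and H4 form the nucleosome core, and H1 binds the linker DNA between cores. Of 33 tested histone genes, 22 were higher and 4 lower in line 102 (66.7% and 12.1%, against 24.3% and 23.8% over all tested genes), with a median log2 fold change of 0.98. Their summed level was between 811 and 1130 FPKM in the CT_55 libraries and between 2360 and 2570 in the CT_102 libraries. Only 12 of the 24 well-measured nucleosome genes are on this list, which was made from gene descriptions, since the GO term also holds genes with other descriptions.

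All 5 H1 genes of at least 15 FPKM were higher in line 102. The H1 gene LOC103638138 had 147, 173 and 104 FPKM in line 55 and 545, 625 and 573 in line 102, and hon101 had 218, 200 and 155 FPKM against 535, 569 and 583. The most abundant core histone gene, the H2B gene LOC103647911, had 380, 308 and 226 FPKM against 651, 604 and 491, a smaller difference (log2 0.88 ± 0.19) that still left the lines apart. In all 3 genes CT_55 replicate 3 was the lowest of the 6. Apart from H3C4, described next, the steepest increases were in the H3 genes LOC103641644 (log2 4.14), LOC100381287 (3.63 ± 0.15) and LOC100502113 (3.4 ± 0.28), each at 2.54 FPKM or less in line 55 and between 14.1 and 27.6 in line 102.

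Not all histones went this way. An H3.2 gene on chromosome 2 (LOC103646477) fell from a mean of 21.1 FPKM in line 55 to 9.74 in line 102, and H3.v1 (LOC103643837) from 16.4 to 10.2. H3C4, annotated from another grass as a centromeric H3, had 0.123, 0.33 and 0.125 FPKM in line 55 and 24.3, 23.5 and 22.4 in line 102, whereas cenH3, the centromeric H3 of maize itself, had 2.38, 2.34 and 3.75 FPKM against 2.25, 2.12 and 1.89 and was not called. Histone genes have near-identical copies, among which the counting may have split reads in a different way in each line. This was not tested. Of the histone genes given here, LOC103638138, LOC103641644, H3C4, cenH3 and LOC100501512 were picked with their values in view.

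**Figure D4:**
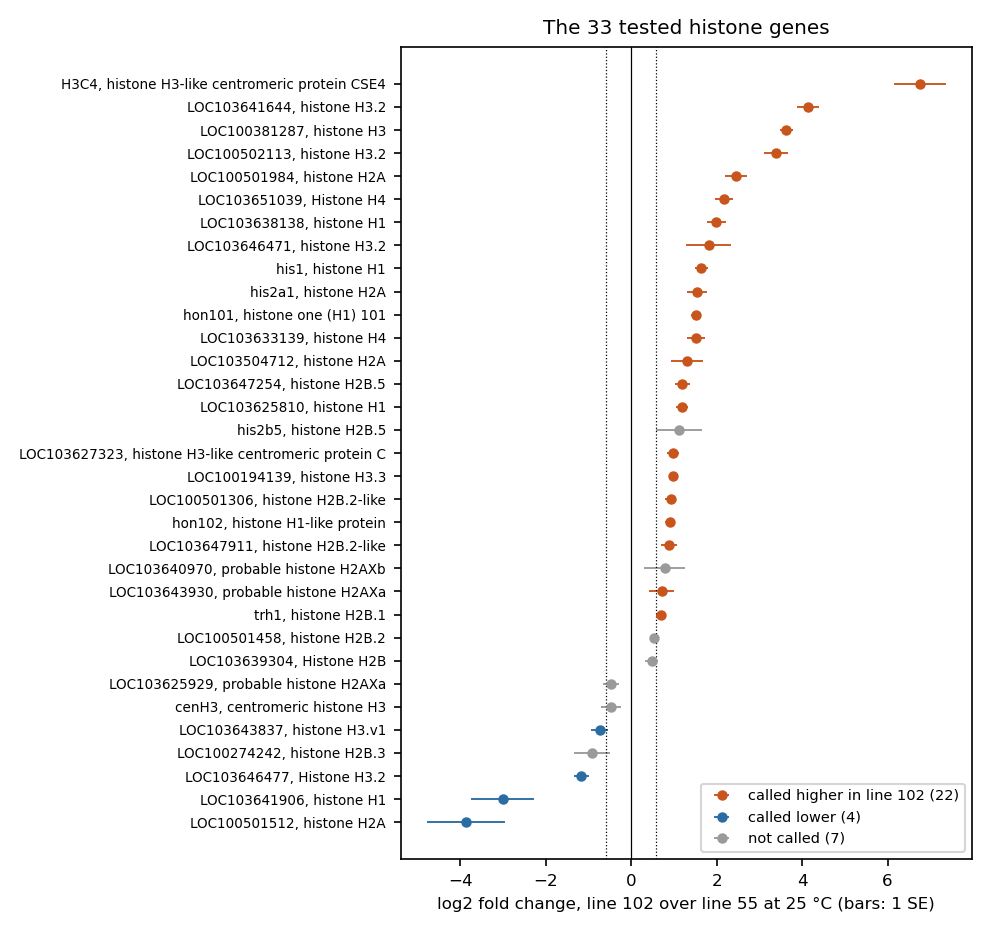
Log2 fold change (line 102 over line 55 at 25 °C, bars 1 SE) of each of the 33 tested histone genes, with dotted lines at a 1.5-fold difference in either direction. Of these, 22 were called higher, 4 lower and 7 were not called, from H3C4 at 6.76 down to LOC100501512 at -3.87.

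Several genes annotated with histone deacetylation or DNA repair were higher in line 102. In the wider GO terms the share of higher genes was near or below the background. DNA repair had 17 of 89 well-measured genes higher and 11 lower (19.1% and 12.4%). Covalent chromatin modification had 3 of 43 higher and 5 lower (6.98% and 11.6%). Over all well-measured genes, 18.9% were higher and 22% lower, so fewer genes than the background were lower in both terms. The gene hdt103, whose symbol is that of a plant-specific histone deacetylase although its deposited description names an inositol phosphatase, had 60.3, 67.4 and 57.2 FPKM in line 55 and 283, 280 and 308 in line 102. A Sin3-like corepressor (LOC103650483), a scaffold for histone deacetylases, rose from 3.05 ± 0.229 to 13.7 ± 2.54 FPKM (SD, n = 3). Poly(ADP-ribose) polymerase 3 (LOC103627237), of the enzyme family that marks broken DNA, had 181, 196 and 246 FPKM in line 55 and 912, 927 and 984 in line 102. The MSH6 gene (LOC542626), whose protein helps to find mismatched bases, had 99.3, 93.9 and 111 FPKM against 548, 550 and 615. By contrast, MLH3 (LOC103647640), a later member of the pathway, was lower in line 102 (25.1 ± 5.04 against 8.93 ± 3.72 FPKM).

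DNA replication as a KEGG pathway had 37 of 110 tested genes higher and 27 lower (33.6% and 24.5%, against 24.3% and 23.8% over all tested genes), and a median of 0.13. Of the 51 well-measured mismatch repair genes, 37 also belong to it. Replication protein A, the single-strand DNA-binding complex, belongs to both pathways, and its genes went both ways: a 32 kDa subunit (LOC103627452) was 2.3-fold higher in line 102 and a DNA-binding subunit (LOC103639662), which part of its entries describe as retrotransposon-like, was 4.03-fold lower.

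Ribosomal protein genes leaned toward line 102. Of 510 tested genes of the KEGG Ribosome pathway, 132 were higher and 79 lower (25.9% and 15.5%), so the share of higher genes was near the background of 24.3% and fewer genes than the background were lower. The median was 0.15, and the summed level was between 33100 and 38600 FPKM in line 55 and between 42800 and 46300 in line 102. Apart from L23a, the 40S protein S24 gene LOC103629822 had 29.6, 19.7 and 32 FPKM in line 55 and 255, 284 and 301 in line 102. In ribosome biogenesis, the nuclear transport GTPase Ran-2 (LOC103630761) had 17, 12.9 and 16.8 FPKM against 75.3, 79.6 and 71.1. Of the enzymes that charge tRNAs, leucine--tRNA ligase (LOC103647355) had 36.4, 35.2 and 29.2 FPKM against 113, 111 and 130, and the organellar cysteine--tRNA ligase LOC103644288 was 5.14-fold higher.

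The spliceosome and proteasome pathways had medians near 0. Of 331 spliceosome genes, 55 were higher and 59 lower (16.6% and 17.8%, median 0.02), and of 124 proteasome genes, 23 were higher and 12 lower (18.5% and 9.68%, median -0.04). Of the well-measured ones, 37 of 276 spliceosome genes were higher and 36 lower, and 14 of 93 proteasome genes were higher and 9 lower, beside 18.9% and 22% over all well-measured genes, with no test of the difference. Single copies still differed widely, such as splicing factor 3B subunit 2 (LOC103631172) with 2.42, 2.52 and 1.68 FPKM against 39.1, 42.5 and 40.8 and a 26S proteasome subunit 14 gene (LOC109942621) with 4.05, 3.4 and 3.31 FPKM against 52.9, 60.3 and 59.5. The most abundant spliceosome gene, a U1 snRNP gene (LOC542179), was at 3790 ± 43 FPKM in line 55 and 4160 ± 98.1 in line 102 (SD, n = 3) and was not called.

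Storage globulins were higher in sum in line 102, while oil body and LEA genes were called in both directions. The storage globulins and other cupins had 5 of 12 tested genes higher and 1 lower (median 0.56). These are 41.7% and 8.33%, against 24.3% and 23.8% over all tested genes. Of the 6 well-measured ones, 2 were higher and 1 was lower (median 0.28). Their summed level as a family was between 12500 and 15100 FPKM in line 55 and between 22200 and 24100 in line 102. The abundant members called higher were glb1 and a globulin-1-like gene, LOC103648676, which had 428, 325 and 486 FPKM in line 55 and 2150, 1940 and 2560 in line 102. The most abundant globulin, glb2, had 8560, 7330 and 8970 FPKM against 10200, 10700 and 10500 and was not called (log2 0.29 ± 0.09). Of the 7 oleosin and caleosin genes, 2 were higher and 2 lower (1 lower without CT_55 replicate 3). The caleosins, calcium-binding proteins of the oil body, split: LOC100285543 fell from a mean of 63.7 to 8.47 FPKM and LOC100282316 rose from 4.56 to 29.8, while the main oleosin ole1 was not called.

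The LEA and dehydrin genes had 9 of 34 higher and 8 lower, near the background, and a median of 0.18. Their summed level was nearly the same, between 23400 and 26000 FPKM in line 55 and between 24000 and 25600 in line 102. Within that total, magi2594 and a D-34 gene on chromosome 5 (LOC100280847, 1300, 1530 and 1360 FPKM against 398, 461 and 437) were lower in line 102, and another D-34 gene (LOC103631743) and the EMB564 gene esp1 (1110, 847 and 616 FPKM against 2280, 2350 and 2430) were higher. The dehydrins behaved likewise: dhn2 had 35.2, 47.4 and 78.7 FPKM against 8.54, 8.11 and 4.47, DHN4 (LOC103635599) had 2.69, 2.91 and 3.64 against 32.7, 25.9 and 20.2, and dhn1 fell just short of the threshold with 2770, 2890 and 2060 against 3850, 3940 and 3970. The genes esp1 and dhn1 were picked with their values in view.

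Several abundant messages for the use of reserves and for central carbon metabolism were lower in line 102. Of the 5 genes of the glyoxylate cycle and PEP carboxykinase, which turn oil into sugar, 2 were lower and none was higher. These are 40% and 0%, against 23.8% lower and 24.3% higher over all tested genes. Of the 4 well-measured ones, 1 was lower and none was higher, beside 22% and 18.9% over all well-measured genes. Isocitrate lyase (LOC103633249), the first enzyme particular to the glyoxylate cycle, had 2090, 2430 and 1790 FPKM in line 55 and 928, 887 and 891 in line 102, which is 2.41-fold lower (log2 -1.27 ± 0.14, adjusted p = 8.1e-06 by edgeR, Benjamini-Hochberg). Malate synthase (mas1), the next enzyme, had 817, 864 and 771 FPKM against 553, 561 and 590. The lines did not overlap in mas1, and its log2 fold change of -0.57 stopped short of the threshold. The main PEP carboxykinase (LOC541622) was at 381 and 346 FPKM on average and was not called. Both mas1 and LOC541622 were picked with their values in view.

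Amylases break down starch. Of the 12 tested genes described as amylases, 6 were lower and 2 higher (50% and 16.7%, median -0.61). Over all tested genes, 23.8% were lower and 24.3% higher. Of the 6 well-measured amylases, 3 were lower and none was higher. The genes called lower include some described as inactive beta-amylase 9. The most abundant member, the beta-amylase pco104637, had a log2 fold change of 0.01 ± 0.12. The summed level of the family overlapped between the lines. An alpha-amylase (LOC100283908) had 18.3, 11.8 and 22.2 FPKM in line 55 and 5.65, 3 and 4.44 in line 102. The cysteine protease list had 2 of 7 genes lower and 1 higher, and 1 lower without CT_55 replicate 3, CT_102 replicate 2 or CT_102 replicate 3.

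Sugar metabolism outside starch also differed. AGA1, an alkaline alpha-galactosidase that belongs to the breakdown of raffinose sugars, had 646, 694 and 740 FPKM in line 55 and 274, 262 and 218 in line 102, and a probable galactinol--sucrose galactosyltransferase (LOC103644222) had 60.4, 70.4 and 100 FPKM against 8.95, 8.27 and 6.13. Both are annotated with response to karrikin, the smoke-derived germination stimulant of that GO term, as is the light-signalling factor HY5 (LOC103634871), with 7.06, 14.5 and 6.46 FPKM against 2.01, 1.96 and 1.97. In starch and sucrose metabolism as a whole, 68 of 272 genes were higher and 77 lower, close to the background, with a probable sucrose-phosphate synthase (LOC100501516) at 14.6, 20.1 and 20.9 FPKM against 0.799, 0.583 and 0.816, and the abundant trehalose-6-phosphate synthase LOC103654185 not called.

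In glycolysis, 31 of 186 genes were higher and 52 lower (16.7% and 28%, median -0.02), and the summed level was between 18900 and 20700 FPKM in line 55 and between 13900 and 15200 in line 102. Cytosolic glyceraldehyde-3-phosphate dehydrogenase 1 (LOC542367) had 3650, 3740 and 3810 FPKM against 1480, 1470 and 1630. Triosephosphate isomerase (TIM) had 328, 345 and 304 FPKM against 115, 131 and 102. The E1 beta subunit of pyruvate dehydrogenase (LOC542483), which links glycolysis to the citrate cycle, had 1440, 1370 and 1470 FPKM against 366, 308 and 288 and was 4.61-fold lower. In each of these the libraries of a line lay close together and the lines were far apart.

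The citrate cycle had 14 of 87 genes higher and 17 lower, both below the background, although its summed level was between 10300 and 11300 FPKM in line 55 and between 7130 and 7740 in line 102. The iron-sulfur subunit of succinate dehydrogenase (LOC109944584) had 1740, 2500 and 2020 FPKM against 1040, 1160 and 993. Oxidative phosphorylation had 38 of 181 higher and 29 lower (21% and 16%, median -0.07). The peroxisome pathway had 29 of 151 higher and 44 lower (19.2% and 29.1%), with glycolate oxidase go1 4.66-fold lower and catalase 3 (LOC100280011) 3.28-fold higher in line 102.

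**Figure D5:**
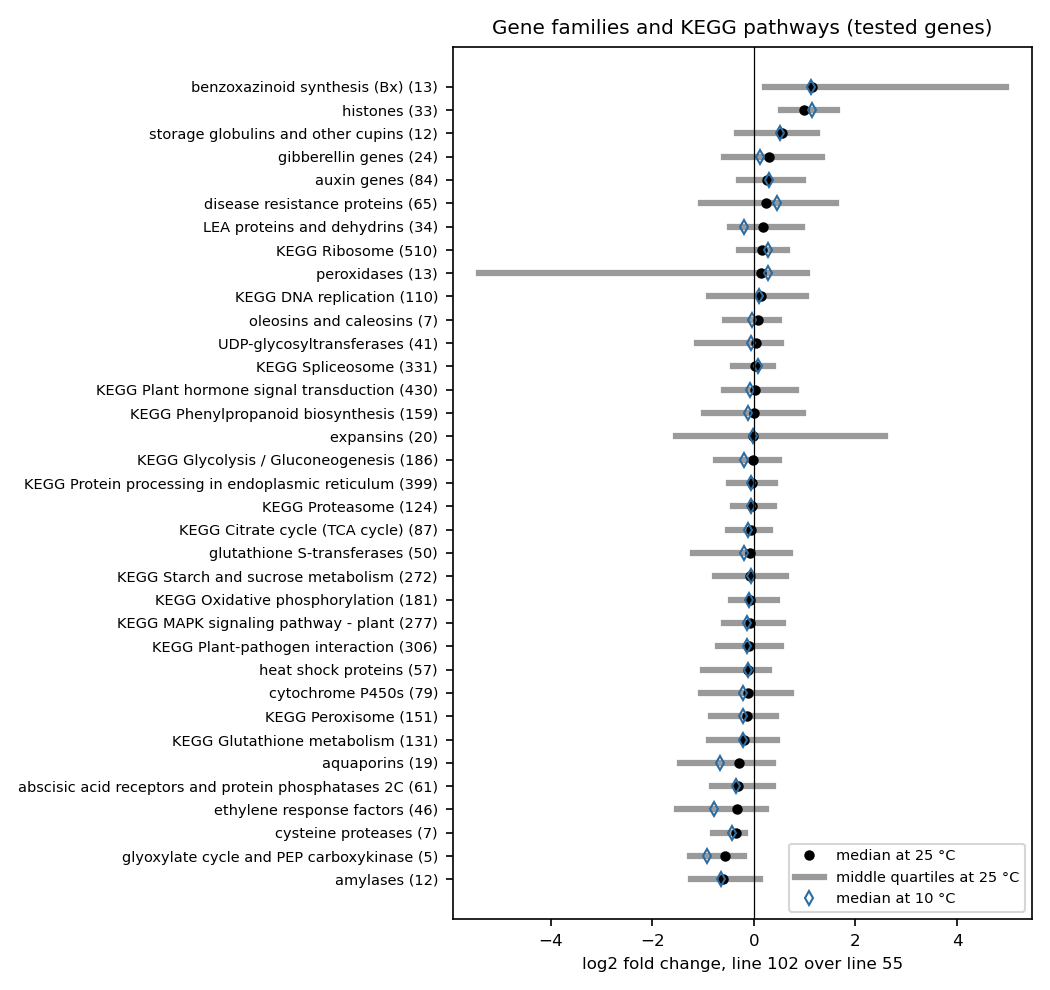
Median log2 fold change (line 102 over line 55) of the tested genes of each family and KEGG pathway at 25 °C (dot), with the middle quartiles as a bar, and the median at 10 °C (diamond), with the number of tested genes in brackets. Histones (0.98 at 25 °C, 1.15 at 10 °C) and benzoxazinoid genes (1.14 and 1.13) lie to the right, amylases (-0.61 and -0.64) and ethylene response factors (-0.34 and -0.79) to the left, and most pathways near 0.

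Genes of aromatic amino acid synthesis and of the phenylpropanoids built from it were more often lower than higher in line 102. The entry enzyme of the shikimate pathway (DAHP synthase, LOC100284499) had 208, 221 and 215 FPKM in line 55 and 58.3, 51.7 and 50 in line 102. Tryptophan synthase beta chain 1 (LOC732842), among the most abundant messages of the embryo, had 4550, 4940 and 4520 FPKM against 2590, 2550 and 2360, and a tryptophan synthase alpha chain gene (LOC103644181) had 18.9, 19.7 and 15.5 against 1.53, 1.8 and 1.61. A copy described as beta chain 2 (LOC109623449) went the other way, with 1.85, 1.17 and 1.49 FPKM against 11.3, 12.3 and 10.3. In arginine and alanine metabolism, alanine aminotransferase 2 (LOC100280822) had 1070, 1150 and 1030 FPKM against 363, 395 and 414.

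Phenylpropanoids are the precursors of lignin, suberin and many defence compounds. Hydroxycinnamoyltransferase 4 (LOC109942262) had 181, 157 and 199 FPKM in line 55 and 15.9, 10.3 and 7.92 in line 102, and the caffeoyl-CoA O-methyltransferase CCOAOMT2 had 12.6, 13.2 and 16.3 FPKM against 4.59, 2.47 and 2.59. LOC100272801, a cytochrome P450 assigned to the KEGG entry of cinnamate 4-hydroxylase, had 359, 320 and 323 FPKM against 97.6, 95.4 and 91.2. Another hydroxycinnamoyltransferase, IDP2411, was 1.79-fold higher in line 102. Over the whole KEGG phenylpropanoid pathway, 41 of 159 tested genes were higher and 50 lower with a median of -0.00, while of the 67 well-measured ones 12 were higher and 27 lower (median -0.19, against 18.9% higher and 22% lower).

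Among genes of cell wall proteins, an expansin-like gene and some peroxidases were near absence in line 102, and others differed less or were not called. Expansins loosen the wall, and class III peroxidases cross-link it. The expansin-like 3 gene LOC111258500 (chromosome 7, 33142937 to 33144990) had 372, 334 and 371 FPKM in line 55 and 1.58, 0.946 and 0 in line 102, so it was an abundant message in the former and nearly undetected in the latter. The expansin-B4 gene LOC103630483 had 66.4, 70.9 and 72.7 FPKM against 18.2, 8.82 and 8.91. Of the 20 tested expansins, 8 were higher and 7 lower (40% and 35%, median -0.02). Over all tested genes, 24.3% were higher and 23.8% lower. Of the 7 well-measured expansins, 1 was higher and 5 lower, beside 18.9% and 22% over all well-measured genes. The summed level of the expansins was between 537 and 578 FPKM in line 55 and between 94.3 and 132 in line 102. Among the 13 tested peroxidases, 4 were higher and 6 lower (30.8% and 46.2%, median 0.14), and of the 5 well-measured ones none was higher and 4 were lower. The peroxidase 5 gene LOC103642599, named after its values were seen, had 53.2, 61.1 and 47.5 FPKM in line 55 and was listed at 0, 0 and 0.0725 in line 102. The peroxidase family in KEGG also holds LOC100194341, an undescribed protein at 761, 783 and 735 FPKM in line 55 and 38.9, 39.5 and 42.9 in line 102.

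Most carriers called under the GO terms of amino acid and glucose transport were lower in line 102. The amino acid transporter pco130308(330) had 26.2, 22.9 and 42.9 FPKM in line 55 and 4.43, 3.79 and 4.91 in line 102, and proline transporter 1 (LOC103650866) had 8.24, 8.53 and 10.4 against 1.85, 1.68 and 1.72. The amino acid transporter-like gene pco106241 was higher, with 12.3, 13.9 and 16.8 FPKM against 55.2, 31 and 29.1. A xylose-proton symporter-like gene (LOC103626301) had 94.2, 101 and 78 FPKM against 55.5, 49.6 and 55.4. Aquaporins, the water channels that act during imbibition, had 4 of 19 genes higher and 8 lower (21.1% and 42.1%, median -0.29). The median rested on single libraries: it was -0.05 without CT_55 replicate 3 and 0.03 without CT_102 replicate 3. Their most abundant member, the seed vacuole channel tip3a, had 1330, 1270 and 1600 FPKM against 1000, 942 and 905, which was no longer called without CT_55 replicate 3 (log2 -0.50). Of the less abundant ones, pip2b was 3.22-fold lower, and pip2d was 4.55-fold higher.

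The list of abscisic acid receptors and protein phosphatases 2C and that of ethylene response factors had more genes lower than higher in line 102. Abscisic acid holds the seed in dormancy, and protein phosphatases 2C (PP2Cs) shut off its signalling. Of 61 tested abscisic acid receptor and PP2C genes, 8 were higher and 22 lower (13.1% and 36.1%, median -0.32), and of the 48 well-measured ones 5 were higher and 18 lower. PP2C20 had 181, 179 and 151 FPKM in line 55 and 53.1, 55.3 and 47.7 in line 102, and LOC103645961 was 3.83-fold lower. The list holds PP2Cs outside the abscisic acid pathway, and its most abundant gene, LOC542153 at 2730 and 2360 FPKM on average, was not called. The GO term response to abscisic acid had 39 of 199 well-measured genes higher and 46 lower (19.6% and 23.1%, median -0.02). Abscisic acid-activated signaling pathway had 14 of 114 higher and 31 lower (12.3% and 27.2%, -0.15). Over all well-measured genes, 18.9% were higher and 22% lower. A relative of the dormancy factor DOG1 of Arabidopsis, DOG1-like 2 (LOC103649730), had 16.7, 11.1 and 5.08 FPKM against 117, 95.3 and 55.3, with a wide spread in both lines and no overlap.

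Of 46 tested ethylene response factors, 7 were higher and 19 lower (15.2% and 41.3%, median -0.34, and -0.53 without CT_102 replicate 1), and of the 24 well-measured ones 2 were higher and 13 lower (median -0.80). ERF8 (LOC103630553) fell from 40.3 ± 12.4 to 5.64 ± 0.491 FPKM (SD, n = 3). EREB202 had 36.3, 36.1 and 35.3 FPKM against 75.5, 89 and 79.9 and was among the few that were higher. The most abundant member, umc1542, an AP2-like factor related to AINTEGUMENTA, had a mean of 307 FPKM against 195. The GO term response to ethylene had 14 of 95 well-measured genes higher and 22 lower (14.7% and 23.2%, median -0.06). Ethylene-activated signaling pathway had 12 of 88 higher and 24 lower (13.6% and 27.3%, -0.20). Auxin genes leaned the other way, with 29 of 84 higher and 13 lower (34.5% and 15.5%, median 0.26), although the repressor IAA24 (LOC100280600) had 39.8, 48.5 and 61.7 FPKM against 9.55, 12.1 and 10.7. Gibberellin genes had 9 of 24 higher and 5 lower. Of the 6 well-measured ones, none was higher and 2 were lower, the GID1L2 receptor gene LOC100282856 and the gibberellin 2-beta-dioxygenase LOC100280480, and the DELLA repressor D8 fell just short of the threshold (log2 -0.58 ± 0.1) and passed it without CT_55 replicate 2 (-0.61), CT_102 replicate 1 (-0.67) or CT_102 replicate 2 (-0.61). KEGG hormone signal transduction as a whole was near the background (121 of 430 higher, 100 lower).

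Of the defence lists, the benzoxazinoid and disease resistance genes were more often called higher than lower in line 102, and the KEGG plant-pathogen pathway was not. Benzoxazinoids are the indole-derived defence compounds of maize seedlings. Of the 13 tested genes of their synthesis, 7 were higher and 1 was lower in line 102 (2 lower without CT_55 replicate 1). These are 53.8% and 7.69%, against 24.3% and 23.8% over all tested genes, and the median was 1.14. Of the 6 well-measured ones, 3 were higher and 1 was lower (median 0.85). The summed level was between 239 and 246 FPKM in line 55 and between 251 and 280 in line 102. The genes bx6 and bx8, for a late dioxygenase and a glucosyltransferase of the pathway, had a mean of 0.329 ± 0.223 FPKM against 19.4, 17 and 17.3, and 7.01, 5.05 and 5.28 FPKM against 16.2, 14.8 and 11.7. A pair of indole-2-monooxygenase-like genes, like bx6 picked with their values in view, was exchanged: LOC109940614 had 25.8, 24.6 and 23.6 FPKM in line 55 and was listed at 0 in every CT_102 library, and LOC103629010 was at 0 in every CT_55 library and had 24.7, 13 and 19.1 FPKM in line 102. The most abundant member, a BX8-like glucosyltransferase (LOC109943562) at 199 and 196 FPKM on average, was not called.

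Disease resistance genes had 26 of 65 higher and 16 lower (40% and 24.6%, median 0.24, and 0.39 without CT_55 replicate 2), and of the 26 well-measured ones 13 were higher and 4 lower. In the KEGG plant-pathogen pathway, 64 of 306 genes were higher and 78 lower, close to the background, with a WRKY transcription factor 4 gene (LOC103636617) at 1.6, 1.43 and 1.7 FPKM against 15.5, 15.6 and 15.9. The MAPK signalling pathway had 60 of 277 genes higher and 67 lower (21.7% and 24.2%), near the background. Of the 158 well-measured ones, 18 were higher and 41 lower. These are 11.4% and 25.9%, against 18.9% and 22% over all well-measured genes, so fewer genes than the background were higher. MPK17-2, a MAP kinase, was 3.19-fold higher and the MAP3K18 gene LOC103651291 was 3.64-fold lower in line 102.

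Detoxifying families had more genes called lower than higher, but the medians of the 3 families were near 0. The glutathione S-transferases had 12 of 50 higher and 16 lower (24% and 32%, median -0.07), and their summed level overlapped between the lines. The cytochrome P450s had 21 of 79 higher and 25 lower (26.6% and 31.6%, median -0.11). The UDP-glycosyltransferases had 9 of 41 higher and 13 lower (22% and 31.7%, median 0.04). Over all tested genes, 24.3% were higher and 23.8% lower. KEGG glutathione metabolism had 25 of 131 higher and 45 lower (19.1% and 34.4%, median -0.20). Besides gst1, the abundant gst19 had 477, 388 and 274 FPKM in line 55 and 146, 162 and 150 in line 102. The cytochrome P450 LOC100274356 had 105, 128 and 72.1 FPKM against 5.06, 5.07 and 4.57.

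Most heat shock protein genes were not called. Of 57 tested genes, 7 were higher and 14 lower (12.3% and 24.6%, median -0.11), with 4 higher when CT_102 replicate 2 was left out. Of the 43 well-measured ones, 4 were higher and 7 lower. The summed level of the family overlapped between the lines. The class I small heat shock protein gene LOC103634220 had 338, 374 and 358 FPKM in line 55 and 31, 45.1 and 31.8 in line 102. Class I heat shock protein 3 (LOC100191552), which lies near it on chromosome 1, had 69.8, 98.8 and 26.8 FPKM against 2.57, 3.27 and 3.77. Heat shock protein 1 (LOC100501536), at 1460 and 1770 FPKM on average, was not called. KEGG protein processing in the endoplasmic reticulum had 74 of 399 genes higher and 80 lower, near the background.

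Neighbouring genes of the same description were at times called in opposite directions, in 7 pairs in all. The largest pair by level was that of the translationally controlled tumor protein on chromosome 5, a growth-related protein: TCTP had 379, 289 and 253 FPKM in line 55 and 88.7, 89.6 and 67.4 in line 102, and its neighbour LOC103626513 had 61.4, 42.9 and 41.8 against 92.1, 102 and 77.6. The sum over the pair was still lower in line 102. The RPM1-like resistance genes LOC103626399 (log2 -1.09) and LOC103626401 (1.67), the UVR8-like genes LOC103654838 (0.84) and LOC100277392 (-1.36), and the KATAMARI1-like genes LOC103640446 (1.11) and LOC103639558 (-1.04) were the next. Of the 7 pairs, 1 overlaps in position, and reads may have been shared or moved between such copies, which was not tested.

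The same contrast was made at 10 °C, in the other 6 libraries of the same lines. The median was 1.15 for histones and -0.79 for ethylene response factors, beside 0.98 and -0.34 at 25 °C. It was -0.93 for the glyoxylate cycle and PEP carboxykinase list and 0.27 for the ribosome pathway, beside -0.57 and 0.15. These lists are examples with a larger median in size at 10 °C, and others went the other way or changed sign. Storage globulins and other cupins had 0.52 at 10 °C beside 0.56 at 25 °C, and gibberellin genes 0.11 beside 0.3. The LEA and dehydrin genes had -0.19 beside 0.18, and the oleosins and caleosins -0.04 beside 0.07. The medians were not tested. The difference between the temperatures in the contrast of the lines (interaction) had an adjusted p-value below 0.05 in edgeR's quasi-likelihood test for 1 of the 22985 tested genes and for none of the 266 genes in the table of named genes.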

How the data were processed

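Embryo poly(A) RNA from 12 samples, 3 per line and temperature, was sequenced, and the labels call the 3 samples of a group biological replicates. The authors deposited a table with raw read counts per gene and a table with FPKM values. The submitters' processing notes name HISAT, StringTie, edgeR and the genome build B73 RefGen_v4, without roles or versions.

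From the deposited counts, all 12 libraries were fitted together in edgeR 4.0.16 (R 4.3.3) with TMM scaling, 4 group means and the quasi-likelihood test, for genes that reached 0.5 FPKM in 3 or more libraries. Calls used the threshold of the study, a 1.5-fold difference with an unadjusted p-value under 0.05, and Benjamini-Hochberg adjusted p-values were computed over all tested genes. FPKM served for levels only. SE is the log2 fold change divided by the square root of F. Fold changes are not given for genes with 3 counts or fewer in every library of a line. In simulated data with 22985 genes for this comparison, a gene counted as found at an adjusted p-value under 0.05 in the same edgeR test, with no fold threshold. Of genes changed by 1 on the log2 scale, 76% were found in the right direction, and of those changed by 2, 97%. Of all genes found, 1.7% were unchanged ones. The rule differs from that of the calls, so these shares do not give the error rate of the calls.

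KEGG pathways, GO terms and descriptions were those of the deposited tables, and families were chosen by description. Cyclophilins (CYP symbols) and 1 peroxidase regulator were taken out of the cytochrome P450 and peroxidase families by their descriptions, after the data had been seen. In some genes the description and the pathway disagree, so genes were named only where both fitted or the disagreement is stated. Named genes were, per direction, up to 6 with the largest change (adjusted p under 0.05, no overlap of the lines, mean FPKM of at least 10, at least 50 counts per library and a described protein), the 5 most abundant called genes, up to 2 per list or term with the largest change at a mean FPKM of at least 5, the most abundant gene of each list, and up to 4 pairs of neighbours called in opposite directions. The 5 most abundant called genes and the up to 2 per list or term also had to meet the adjusted p-value and the condition of no overlap. Genes outside this rule are stated to be picked with their values in view. The members and lists were chosen with earlier results of these data known. Terms and lists were described by counts and medians without a test. Alternatives were other scaling, filters, thresholds, DESeq2 1.42.0, limma 3.58.1 on log2 FPKM with a pseudocount of 0.1 or 1, the 25 °C libraries alone, a replicate block, counts divided by 4, and leaving out each library. A result for 1 named gene is not reported here. Tables and figures were made with Python 3.11.15, pandas 2.3.3, numpy 2.4.6 and matplotlib 3.10.9.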

Additional observations from a re-analysis of the deposited data

How the results depend on the processing

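The counts of 5581 genes higher and 5478 lower in line 102 stayed within 1.5 times under every alternative run. They were 5584 and 5472 with median ratio scaling, 5580 and 5473 with DESeq2, 6024 and 5209 with limma at a pseudocount of 0.1, 5067 and 4546 at a pseudocount of 1, and 6668 and 6382 of 33589 genes without a filter. A log2 threshold of 1 left 3905 and 3842. Leaving out 1 library gave between 5362 and 5534 higher and between 5231 and 5437 lower. Same-numbered libraries of the lines did not deviate together (correlations of -0.0198, -0.0124 and -0.0194), so the numbers were not taken as pairs. With a replicate block the counts were 5631 and 5432, and 98.4% of the called genes were shared.

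Each of the 266 named genes was followed through each alternative, so a gene can count more than once. The call was unchanged in 4435 of these outcomes, lost in 67 and gained in 20, and none reversed. Of the 67 losses, 43 came with the log2 threshold of 1. The median of 4 families changed sign. At a filter of FPKM 1 it was -1.0 for peroxidases and -0.10 for gibberellin genes, with limma at a pseudocount of 0.1 it was 0.05 for cytochrome P450s, and for aquaporins, at -0.29, leaving out 1 library gave between -0.40 and 0.03, the latter without CT_102 replicate 3. The cause was not tested. With 3 libraries a line, the smallest exact permutation p-value for a single value would be 0.1, so calls rest on the spread shared across genes.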
